A study of Mus with 8 samples.

Results

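Metallothioneins and zinc transporters are described here by 9 genes, chosen by name from the 54532 genes of a deposited liver RNA-seq table: the metallothioneins Mt1 and Mt2, the importers Slc39a4, Slc39a14, Slc39a5 and Slc39a8, the exporters Slc30a1 and Slc30a10, and the zinc sensor Mtf1. They were picked with earlier results of the same comparison in view. Their levels and fold changes in it are therefore a description, given without p-values. The livers came from mice with colitis induced by dextran sulfate sodium (DSS), a polysaccharide that injures the colonic epithelium, given at 2.5% and stopped on day 6. The DSSHA group (libraries 35, 45, 65 and 71) received DSS followed by alcohol and a high-fat diet, and the DSS group (libraries 15, 48, 49 and 50) is labelled with DSS alone. The design text mentions a purified feed without tying it to a label, so what the DSS mice ate is uncertain. Mice were sorted into groups by weight and disease score when DSS was stopped. Every mouse analysed here had received DSS. Alcohol and diet were given together and cannot be told apart, and strain, sex and age are not given in the labels.

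Metallothioneins are small cysteine-rich proteins that bind zinc and copper, and in the liver they buffer zinc that hepatocytes take up. The ZIP proteins (Slc39a genes) move zinc into the cytosol, and the ZnT proteins (Slc30a genes) move it out of the cell or into organelles. Mtf1 encodes the transcription factor that senses free zinc and drives metallothionein genes, which stress hormones and inflammatory cytokines also induce in mouse liver.

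Total counts per library ran from 12502300 to 16967839, of which nuclear genes took 2722757 to 10947612. Mitochondrially encoded transcripts took 45.2% ± 19.2 of the counts in DSSHA and 65.2% ± 11.4 in DSS (SD, n = 4 each). The groups overlapped, with p = 0.143 in an exact permutation test whose smallest two-sided p is 0.0286. DSSHA library 35 stood apart in how few genes it held at low counts: 784 genes had 1 to 9 counts there, whereas between 4319 and 4987 did in each of the others. The labels do not say that each library came from its own mouse, so errors and p-values measure the spread between libraries. Levels are given as CPM, counts scaled to the library size after trimmed-mean (TMM) normalization, and fold changes come from an edgeR fit over all 11729 genes that passed a filter on low counts. All 9 genes passed that filter.

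In DSSHA livers the metallothionein genes stood 8.43-fold (Mt1) and 10.0-fold (Mt2) above DSS livers, and the importer gene Slc39a4 stood 3.12-fold lower. These 3 of the 9 genes passed the edgeR quasi-likelihood test at an adjusted p under 0.05, as did 1.26% of all genes tested. Their groups also had no overlap in CPM, which held for 8.77% of all genes tested (4.14% higher in DSSHA and 4.63% lower), whereas the groups overlapped for the other 6. Since the genes were picked on this comparison, nothing is read from either count. Slc39a14 stood 1.58-fold higher without passing, and Slc30a1, Slc30a10 and Mtf1 had fold changes near 1.

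**Figure D1:**
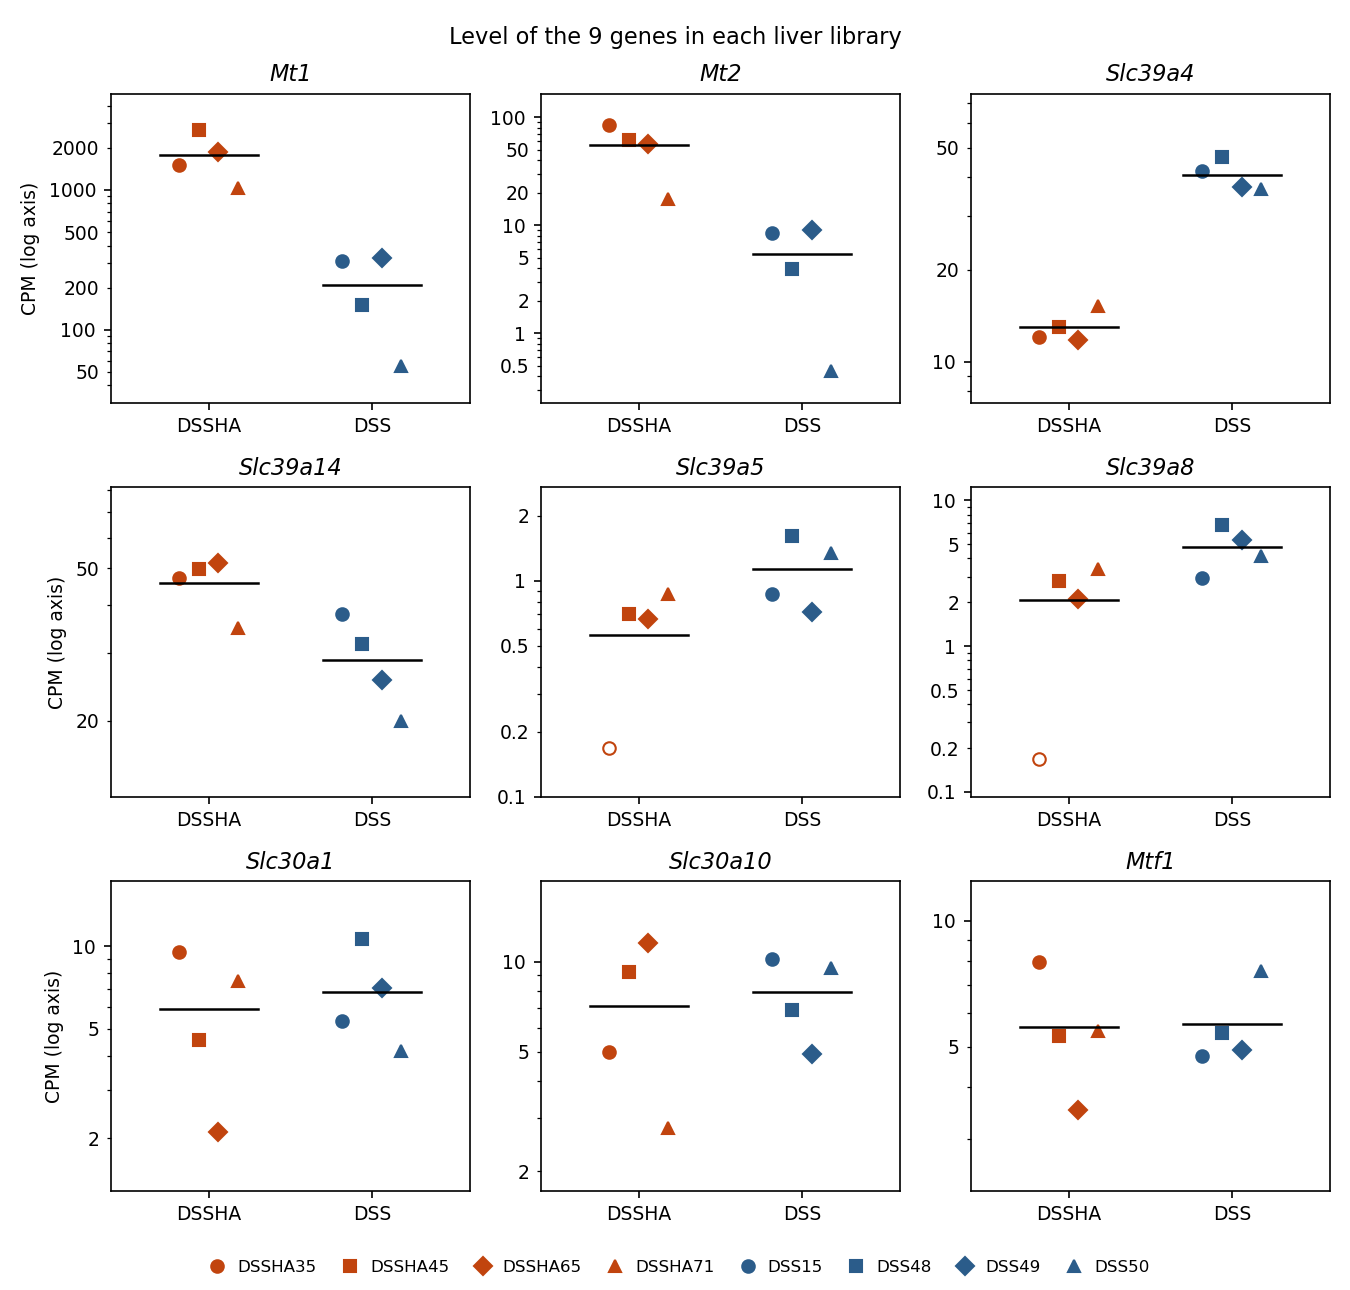
CPM (log axis) of each of the 9 genes in the 4 DSSHA libraries, left, and the 4 DSS libraries, right; lines are group means and marker shapes name libraries only, with no pairing. Open circles mark 0 counts, drawn at 3 counts. Mt1 runs from 1034 to 2685 CPM in DSSHA and from 55.0 to 324 CPM in DSS, and Slc39a4 from 11.8 to 15.2 CPM in DSSHA against 36.6 to 46.8 CPM in DSS.

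Mt1 (ENSMUSG00000031765, chromosome 8, 94179082 to 94180327, plus strand, GRCm38) had 1497, 2685, 1865 and 1034 CPM in DSSHA libraries 35, 45, 65 and 71, against 310.0, 150.4, 324 and 55.0 CPM in DSS libraries 15, 48, 49 and 50. Every DSSHA library lay above every DSS library. The means were 1770.2 ± 698 CPM in DSSHA and 210.0 ± 130.0 CPM in DSS (SD, n = 4 each), a log2 fold change of 3.08 ± 0.53 (SE; 95% interval 1.91 to 4.24). Mt1 was among the most abundant liver transcripts in DSSHA: by deposited FPKM (counts scaled to gene length and library size) it ranked 20, 12, 19 and 33 among nuclear genes in libraries 35, 45, 65 and 71. In DSS libraries 15, 48, 49 and 50 it ranked 89, 176, 92 and 436. It took 0.426% ± 0.150 of nuclear counts in DSSHA and 0.0502% ± 0.0313 in DSS (SD, n = 4 each).

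Mt2 (ENSMUSG00000031762, chromosome 8, 94172664 to 94173568, plus strand), the neighbouring copy that encodes a closely related protein, had 85.2, 62.3, 57.2 and 17.7 CPM in DSSHA libraries 35, 45, 65 and 71. It had 8.48, 3.93, 8.99 and 0.447 CPM in DSS libraries 15, 48, 49 and 50. The groups were again apart, and the lowest value rested on 3 counts in DSS library 50. The means were 55.6 ± 28.1 CPM in DSSHA and 5.46 ± 4.04 CPM in DSS (SD, n = 4 each), and the log2 fold change was 3.32 ± 0.67 (SE; 95% interval 1.86 to 4.79). DSSHA library 71 and DSS library 50 were the lowest of their groups for both metallothionein genes. In DSS the 4 libraries had the same order for both genes (49, 15, 48, 50), whereas in DSSHA library 45 was highest for Mt1 and library 35 for Mt2.

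Whether the metallothionein genes passed the test depended on single libraries, while their fold changes stayed positive. Mt1 no longer passed without DSS library 48 (log2 fold change 2.94) or DSSHA library 45 (2.80). Over all genes tested, 58 passed without DSS 48 and 83 without DSSHA 45, against 148 with all libraries. Mt2 passed in 2 of the 8 fits that left out 1 library, those without DSS 50 (2.95) and DSSHA 71 (3.62), and lost its call without DSS 15, 48 or 49 or DSSHA 35, 45 or 65, with limma-voom and when no low-count filter was set. Neither passed once the mitochondrial share was a covariate, at log2 fold changes of 2.97 for Mt1 and 3.30 for Mt2. In that fit 55 of all genes tested passed. Among the fits that lost Mt2, the count over all genes was lower in some, such as without DSS 49 (74). It was higher in others, such as without DSSHA 35 (308).

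Counts of the pair were far from even. Mt2 supplied 5.39, 2.27, 2.98 and 1.68% of the summed Mt1 and Mt2 counts in DSSHA libraries 35, 45, 65 and 71, and 2.66, 2.54, 2.69 and 0.806% in DSS libraries 15, 48, 49 and 50. Within DSSHA this share differed between libraries by more than counting error: its 95% Wilson interval was 5.13 to 5.66% in library 35 and 1.53 to 1.84% in library 71. Within DSS the intervals overlapped, with 0.275 to 2.34% in library 50. The group means of the share were 3.08% ± 1.63 in DSSHA and 2.18% ± 0.916 in DSS (SD, n = 4 each), and the groups overlapped. Intervals cover counting error only. Per length, Mt1 exceeded Mt2 by 8.29 to 27.6 times in FPKM in DSSHA and by 17.0 to 58.0 times in DSS. The authors' length for Mt1, 1246 bases, equals the whole span of the gene from start to end, whereas that for Mt2, 588 bases, is shorter than its span of 905 bases. The ratio per length depends on these models. The genes are close copies, and how reads shared between them were counted is not given in the sources used here.

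**Figure D2:**
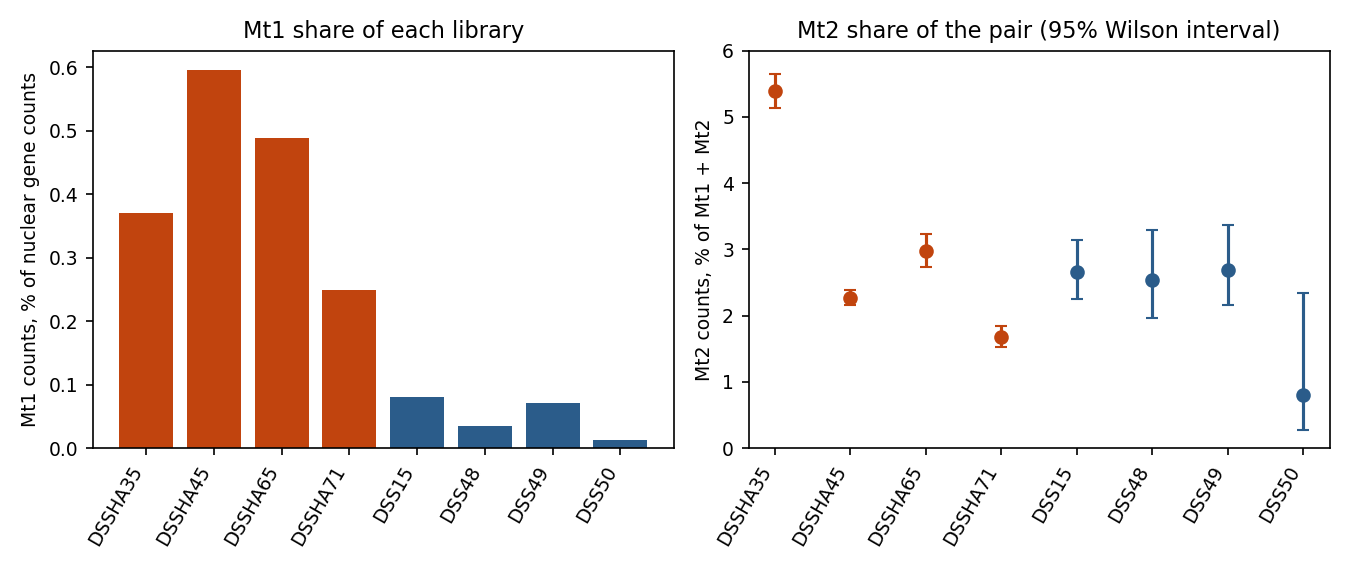
Left, Mt1 counts as a percentage of nuclear gene counts in each library; right, Mt2 counts as a percentage of Mt1 plus Mt2 counts, with 95% Wilson intervals, DSSHA libraries before DSS libraries. The Mt1 share is 0.249 to 0.596% in DSSHA and 0.0136 to 0.0806% in DSS, while the Mt2 share of the pair overlaps between the groups.

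Mt1 and Mt2 lie 5513 bases apart in a cluster that also holds Mt3, expressed mainly in brain, and Mt4, expressed mainly in stratified epithelium. Mt3 had 5 counts over the DSSHA libraries and 0 over the DSS libraries, and Mt4 had 0 counts in all 8, which allows at most 0.447 CPM in the shallowest library. The flanking genes Bbs2 and Nup93, chosen by position after the data were seen, encode a ciliary protein and a nuclear pore protein. Bbs2 had 2.28 ± 0.447 CPM in DSSHA and 1.38 ± 0.881 CPM in DSS (SD, n = 4 each; log2 fold change 0.69 ± 0.57, edgeR adjusted p = 0.727). Nup93 had 2.02 ± 0.154 CPM in DSSHA and 1.83 ± 0.909 CPM in DSS (SD, n = 4 each; log2 fold change 0.12 ± 0.51, edgeR adjusted p = 0.959). Neither passed. Gm45774, an antisense gene (94170748 to 94173412) that overlaps Mt2 from its start through most of its span, had 14 counts over the DSSHA libraries and 0 over the DSS libraries, too few to test. Since the strand setting is not given in the sources used here, reads of Mt2 and of its antisense gene cannot be told apart.

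**Figure D3:**
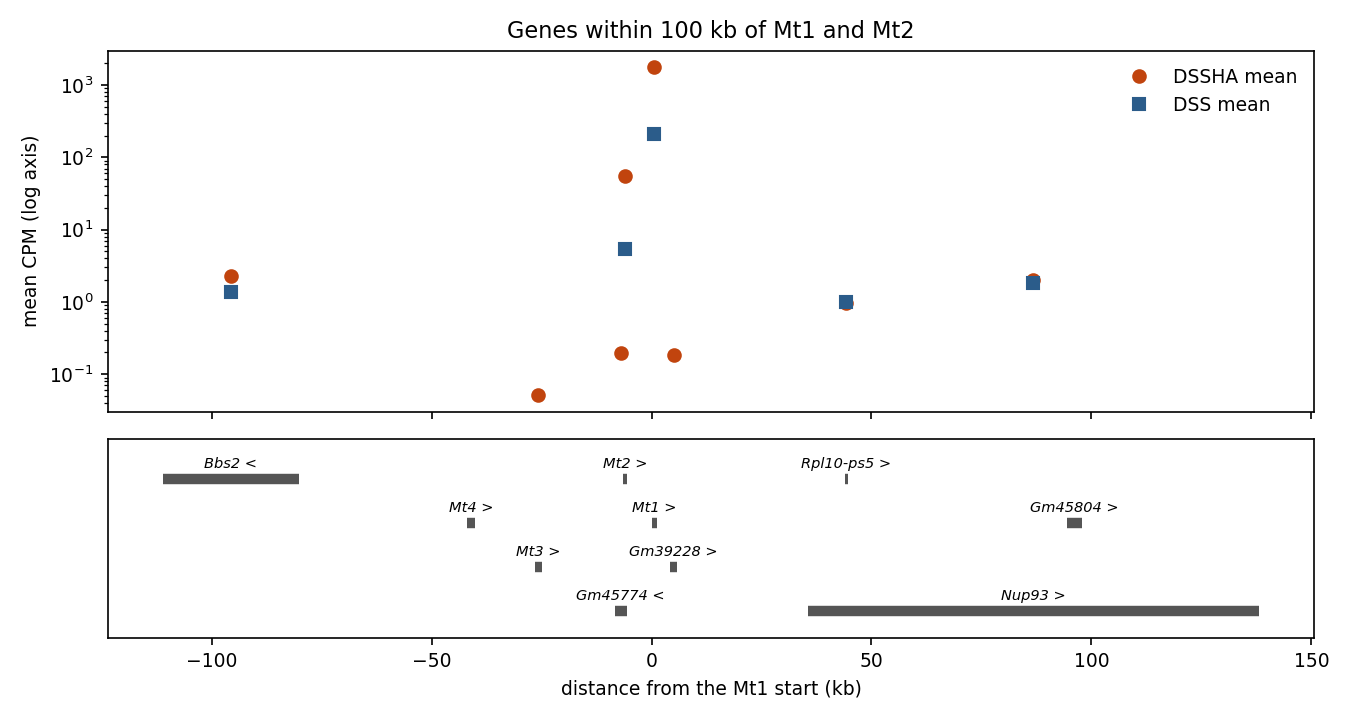
Genes within 100000 bases of the Mt1 and Mt2 pair by distance from the Mt1 start (kb), with group mean CPM above (log axis; means of 0 are not drawn) and gene extents below, > and < giving the strand. Only Mt1 and Mt2 show means above 3 CPM, at 1770.2 and 55.6 CPM in DSSHA and 210.0 and 5.46 CPM in DSS.

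Of the importers, Slc39a4 encodes ZIP4, known as the intestinal zinc uptake transporter whose loss causes acrodermatitis enteropathica in humans. Slc39a4 (ENSMUSG00000063354, chromosome 15, 76612383 to 76617384) had 12.03, 13.0, 11.8 and 15.2 CPM in DSSHA libraries 35, 45, 65 and 71, against 42.1, 46.8, 37.1 and 36.6 CPM in DSS libraries 15, 48, 49 and 50. The groups were well apart and each was tight, with an SD of 11.7% of the mean in both, the smallest of the 9 genes. The means were 13.0 ± 1.53 CPM in DSSHA and 40.7 ± 4.76 CPM in DSS (SD, n = 4 each), and the log2 fold change was -1.64 ± 0.20 (SE; 95% interval -2.07 to -1.21). It passed the test in each of the 16 alternatives run, from -1.81 with the mitochondrial covariate to -1.44 with limma on log2(FPKM + 1). These fits reuse the libraries on which the gene was picked, so the passes are no independent support.

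Intestinal tissue was looked for beside Slc39a4 with 6 markers of intestinal epithelium. Their summed level was 77.1 to 137 CPM in DSSHA and 95.5 to 143 CPM in DSS, with overlap. Lgals4 and Fabp2 made up nearly all of it, at 61.9 and 41.8 CPM in DSSHA and 86.7 and 36.2 CPM in DSS. The sum therefore follows these genes and is no measure of intestinal tissue. The intestinal factor gene Cdx2 had 0 counts in all libraries, the sucrase gene Sis had 0 to 2 counts in DSSHA and 0 in DSS, the mucin gene Muc2 had 0 to 39 counts in DSSHA and 1 to 7 in DSS, and Vil1 had 0 to 30 counts in DSSHA and 0 to 4 in DSS.

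Slc39a14 encodes ZIP14, a hepatocyte importer of zinc, manganese and non-transferrin iron that interleukin-6 induces during the acute-phase response in mice. Slc39a14 (ENSMUSG00000022094, chromosome 14, 70303469 to 70351425) had 47.0, 49.6, 51.6 and 34.8 CPM in DSSHA libraries 35, 45, 65 and 71, against 37.8, 31.8, 25.5 and 19.96 CPM in DSS libraries 15, 48, 49 and 50. DSSHA library 71 lay below DSS library 15, and the other DSSHA libraries lay above all DSS libraries. Libraries 71 and 50, lowest for both metallothionein genes, were also the lowest of their groups here. They were also the extremes of the mitochondrial share, at 30.2% in library 71 and 79.1% in library 50. Library 50 had the fewest nuclear counts as well (2722757). The means were 45.8 ± 7.51 CPM in DSSHA and 28.8 ± 7.74 CPM in DSS (SD, n = 4 each), a log2 fold change of 0.66 ± 0.24 (SE; 95% interval 0.14 to 1.19). RefSeq lists 3 curated transcripts for this gene, and a count per gene does not separate them.

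Slc39a8 encodes ZIP8, an importer of zinc and manganese. It had 0, 2.80, 2.10 and 3.37 CPM in DSSHA libraries 35, 45, 65 and 71 and 2.93, 6.80, 5.39 and 4.17 CPM in DSS libraries 15, 48, 49 and 50. The groups overlapped, since DSSHA libraries included 1 value above the lowest DSS value. The log2 fold change was -1.21 ± 0.81 (SE), or -0.79 without library 35. Slc39a5 encodes ZIP5, which is known from the basolateral face of mouse enterocytes and pancreatic acinar cells. It was scarce, with 0, 17, 6 and 22 counts in DSSHA libraries 35, 45, 65 and 71 and 14, 23, 6 and 9 counts in DSS libraries 15, 48, 49 and 50. Its log2 fold change was -1.01 ± 0.92 (SE), or -0.59 without library 35. The 0 counts of both genes in library 35 would allow up to 0.168 CPM each (3 counts) if they arose by sampling alone. That library listed few genes at low counts, so this limit may not hold there. The 95% intervals ran from -2.98 to 0.56 for Slc39a8 and from -3.03 to 1.01 for Slc39a5, so changes of several fold in either gene were not resolved at this depth.

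Neither exporter gene nor Mtf1 differed beyond its spread between libraries. Slc30a1 encodes ZnT1, which exports zinc across the plasma membrane and is itself an Mtf1 target. It had 9.51, 4.57, 2.10 and 7.501 CPM in DSSHA libraries 35, 45, 65 and 71, against 5.36, 10.6, 7.07 and 4.17 CPM in DSS libraries 15, 48, 49 and 50. The groups overlapped throughout, and the log2 fold change was -0.19 ± 0.45 (SE; 95% interval -1.17 to 0.78), or -0.50 without library 35 and 0.10 without DSS library 48. Mt1, Mt2 and Slc30a1 are all known Mtf1 targets in mice, with log2 fold changes here of 3.08, 3.32 and -0.19, and the difference between them was not tested.

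Slc30a10, which encodes a manganese exporter of hepatocytes and enterocytes, had 4.98, 9.26, 11.5 and 2.78 CPM in DSSHA libraries 35, 45, 65 and 71. It had 10.2, 6.87, 4.91 and 9.53 CPM in DSS libraries 15, 48, 49 and 50. Both the highest and the lowest value lay in DSSHA, and the log2 fold change was -0.16 ± 0.43 (SE; 95% interval -1.09 to 0.77), or 0.11 without DSSHA library 71. Mtf1 had 7.95, 5.31, 3.53 and 5.44 CPM in DSSHA libraries 35, 45, 65 and 71, against 4.74, 5.40, 4.91 and 7.60 CPM in DSS libraries 15, 48, 49 and 50. Its group means were 5.56 ± 1.81 CPM in DSSHA and 5.66 ± 1.32 CPM in DSS (SD, n = 4 each), and the log2 fold change was -0.01 ± 0.32 (SE; 95% interval -0.71 to 0.68). Transcript levels of a sensor that zinc activates as a protein do not measure its activity.

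The order of levels per length, by deposited FPKM, differed between the groups. In DSSHA it ran Mt1 (1393 ± 554), Mt2 (92.6 ± 46.5), Slc39a14 (4.25 ± 0.724) and Slc39a4 (4.10 ± 0.461), followed by Slc30a10, Slc30a1, Mtf1, Slc39a8 and Slc39a5, the last at 0.246 ± 0.169 (FPKM, SD, n = 4). In DSS it ran Mt1 (165 ± 103), Slc39a4 (12.8 ± 1.57), Mt2 (9.13 ± 6.77) and Slc39a14 (2.68 ± 0.743), followed by the same 5 genes, the first of them, Slc30a10, at 1.32 ± 0.416 (FPKM, SD, n = 4). Neighbours in the order overlapped in their library ranges except Mt1 above Mt2, Mt2 above Slc39a14 and Slc39a4 above Slc30a10 in DSSHA, and Mt1 above Slc39a4 and Slc39a14 above Slc30a10 in DSS. Slc39a4 thus stood level with Slc39a14 in DSSHA and above it in every DSS library.

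The remaining zinc transporter and metallothionein genes showed no change that passed. Of 20 listed, 12 could be tested and none passed in either direction (edgeR, adjusted p under 0.05), against 0.588% of all genes tested that rose and 0.674% that fell. At an unadjusted p under 0.05 there were 0 of the 12, against 11.7% of all genes tested. DESeq2 and limma-voom also passed 0 of the list, against 2.97% and 1.03% of all genes that each tool tested. With so low a share over all genes, 0 of a short list is near the background. Of the 12 log2 fold changes 6 were positive and 6 negative, with a median of 0.02, beside -0.01 over all genes tested. Among the other importers, the plasma membrane transporter gene Slc39a1 stood at -0.07 ± 0.24 on the log2 scale (SE), the Golgi gene Slc39a9 at 0.48 ± 0.28 and Slc39a11 at -0.95 ± 0.53. Slc39a3, Slc39a13, Slc39a2 and Slc39a7 stood at log2 fold changes of 0.38, -0.15, -0.25 and -0.58. Among the ZnT genes, Slc30a5 and Slc30a6, whose products pair in the early secretory pathway, had log2 fold changes of 0.31 ± 0.28 and 0.87 ± 0.60 (SE). Slc30a7, Slc30a4 and Slc30a9 stood at log2 fold changes of 0.41, -0.04 and 0.08. Slc39a6, Slc39a10, Slc39a12, Slc30a2, Slc30a3, Slc30a8, Mt3 and Mt4 were too scarce to test. The 95% interval of Slc39a1 reached only from -0.60 to 0.46, whereas that of Slc39a7 ran from -2.85 to 1.69.

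**Figure D4:**
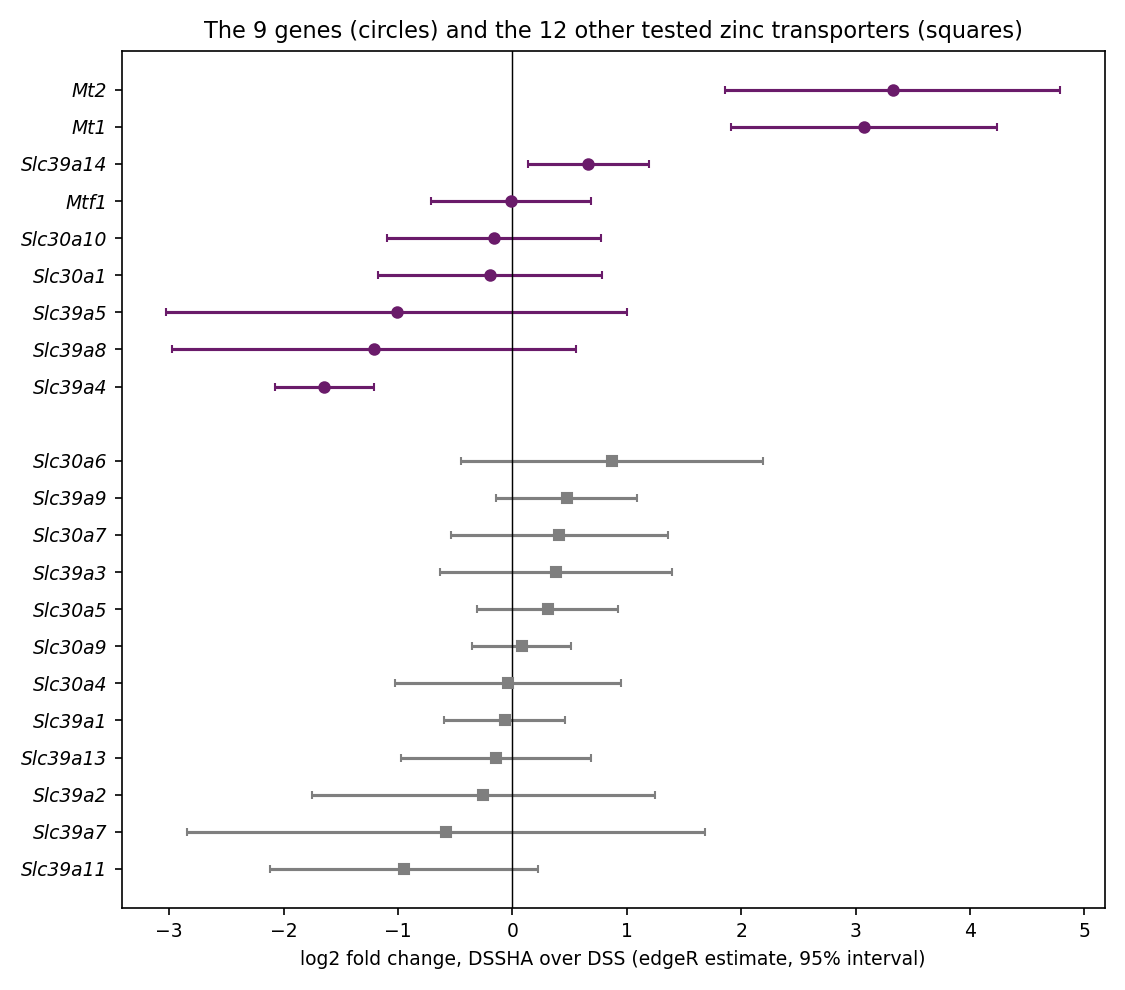
Log2 fold change, DSSHA over DSS, with 95% interval for the 9 genes (circles) and for the 12 other zinc transporter genes that could be tested (squares). Mt2 and Mt1 lie at 3.32 and 3.08 and Slc39a4 at -1.64, while the 12 others lie between -0.95 and 0.87 with intervals that include 0.

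Of 6 other known targets of Mtf1 in mice, 5 could be tested and 0 passed, against 1.26% of all genes tested, with 0 also by DESeq2 and by limma-voom. At an unadjusted p under 0.05 there was 1 of the 5, against 11.7% of all genes tested, and the median log2 fold change was 0.24, beside -0.01 over all genes tested. Counts over so few genes do not set the list apart from the background. Gclc, which encodes the catalytic subunit of glutamate-cysteine ligase, stood at -0.82 ± 0.27 (SE; edgeR adjusted p = 0.211), and fell without library 35 (-1.04, edgeR adjusted p = 0.030; range over its alternatives 0.030 to 0.538). Selenow, a selenoprotein gene, had 57.9 ± 18.7 CPM in DSSHA and 45.2 ± 5.08 CPM in DSS (SD, n = 4 each; log2 fold change 0.36, edgeR adjusted p = 0.670).

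Of 15 tested genes of copper and manganese handling none passed, against 1.26% of all genes tested, and the median log2 fold change was 0.21. At an unadjusted p under 0.05 there were 4 of the 15, against 11.7% of all genes tested in edgeR. By DESeq2 1 rose, against 2.97% of its genes called in either direction, and by limma-voom 0 passed. Atox1, the copper chaperone for the secretory pathway, had 78.8 ± 21.0 CPM in DSSHA and 42.1 ± 5.38 CPM in DSS (SD, n = 4 each; log2 fold change 0.91 ± 0.23, edgeR adjusted p = 0.092), and passed without library 35 (0.96, adjusted p = 0.035) and with DESeq2 (adjusted p = 0.023), within 0.023 to 0.358 over its alternatives. Of 17 tested zinc-binding enzymes and plasma carriers of zinc, 1 fell and none rose (median 0.09), against 0.674% and 0.588% of all genes tested. DESeq2 passed 2, both lower, Car3 and Alb, against 2.97% of its genes called in either direction. The gene that fell in edgeR was Car3, a carbonic anhydrase, with 15.1 ± 15.2 CPM in DSSHA and 327 ± 162 CPM in DSS (SD, n = 4 each; log2 fold change -4.43 ± 0.64, edgeR adjusted p = 0.0066). Its call was lost without library 35 (-4.20, edgeR adjusted p = 0.054), with the mitochondrial covariate (-5.04, 0.062) and with no filter (-4.41, 0.083), the highest of its alternatives, whose lowest was 5.3e-15. Alb, which encodes the main zinc carrier of plasma, stood at -1.20 ± 0.31 (SE; edgeR adjusted p = 0.115), and Adh1, a zinc-dependent alcohol dehydrogenase, at -0.19 ± 0.36 (edgeR adjusted p = 0.896).

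Glucocorticoids and interleukin-6 are known inducers of metallothionein genes in rodent liver, and lists of their response genes were counted in the same fit. The glucocorticoid list also holds the receptor gene Nr3c1, and the interleukin-6 list the receptor genes Il6ra and Il6st. The part of either inducer in the metallothionein values was not tested. Of 14 glucocorticoid-induced genes 1 fell and none rose in edgeR (median log2 fold change -0.33), against 0.674% and 0.588% of all genes tested. At an unadjusted p under 0.05 there were 5 of the 14, against 11.7% of all genes tested. The groups did not overlap for 4 of the 14 that were lower and 1 that was higher in DSSHA, against 4.63% and 4.14% of all genes. By DESeq2 2 fell (Hsd11b1 and Per1) and 1 rose (Fkbp5), against 2.97% of its genes called in either direction. The gene that fell was Hsd11b1, whose enzyme regenerates active glucocorticoid, with 85.1 ± 26.5 CPM in DSSHA and 282 ± 78.9 CPM in DSS (SD, n = 4 each; log2 fold change -1.73 ± 0.30, edgeR adjusted p = 0.017). Its call was lost without DSS library 48, 49 or 50 (edgeR adjusted p = 0.076, 0.071 and 0.064), without DSSHA library 45 (0.076) and with the mitochondrial covariate (0.163), out of a range from 6.6e-06 to 0.163. Fkbp5, a classical receptor target, stood at 0.80 ± 0.21 (SE; edgeR adjusted p = 0.108) and Per1 at -1.22 ± 0.30 (edgeR adjusted p = 0.090). Of 12 genes of the interleukin-6 and STAT3 response none passed in edgeR, against 1.26% of all genes tested, and the median log2 fold change was 0.76 beside -0.01 over all genes tested. At an unadjusted p under 0.05 there were 6 of the 12, against 11.7% of all genes tested. The groups did not overlap for 3 of the 12, all higher in DSSHA (Il1r1, Osmr and Fgb), against 4.14% of all genes. By DESeq2 3 rose (Socs3, Il1r1 and Fgb), against 2.97% of its genes called in either direction, and by limma-voom 0 passed. Socs3, the feedback inhibitor of the pathway, had 16.9 ± 11.9 CPM in DSSHA and 3.88 ± 3.58 CPM in DSS (SD, n = 4 each; log2 fold change 2.07 ± 0.62, edgeR adjusted p = 0.166). Fgb is the only secreted plasma protein gene in this list, so its counts do not cover other acute-phase genes. Of those, named after their values were seen, Hp (log2 fold change 2.66, edgeR adjusted p = 0.0026), Saa1 (5.78, 0.0026) and Orm1 (3.43, 0.00044) passed. C3 (0.50, 0.539) did not pass. These genes are examples and not a count.

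Markers of cell types were set beside these values, over 12 lists. The summed level of 6 hepatocyte markers was 22796 to 27694 CPM in DSSHA and 39987 to 63054 CPM in DSS, with no overlap (exact two-sided permutation p = 0.0286, the smallest possible; 0.171 adjusted over the 12 lists). Alb made up most of that sum, at 18457 CPM in DSSHA and 42304 CPM in DSS. Singly, 0 of the 6 markers passed, against 1.26% of all genes tested. Their log2 fold changes were uneven: -1.20 for Alb, -0.93 for Ttr, -0.62 for Apoa1, -0.38 for Hnf4a, -0.31 for Serpina1a and -0.14 for Cps1. The summed level of 8 neutrophil markers was 29.1 to 60.5 CPM in DSSHA and 3.95 to 15.1 CPM in DSS (exact permutation p = 0.0286; 0.171 adjusted over the lists). Of the 4 that could be tested 3 rose (S100a8, S100a9 and Retnlg), while the defining gene Ly6g had 0 to 4 counts in DSSHA and 0 to 2 in DSS. The other 10 lists had an exact permutation p of 0.0857 or more. In whole liver, a change in the number of cells of a type and a change in its marker transcripts per cell cannot be told apart. The part of cell composition in the metallothionein and transporter values was not tested.

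Likeness of profile was measured as the root-mean-square difference of log2 CPM over the 8 libraries, each gene centred on its own mean, among genes with a mean of at least 2 CPM. Mt1 and Mt2 differed from each other by 0.655, and 3 of 9585 genes lay closer to Mt1 than Mt2 did. The 5 genes nearest to the mean profile of Mt1 and Mt2 were Apcs (0.670), Gm379 (0.673), Fgl1 (0.803), Hp (0.944) and Armcx4 (0.952). Apcs, Fgl1 and Hp encode the secreted liver proteins serum amyloid P component, fibrinogen-like 1 and haptoglobin, with log2 fold changes of 3.93, 2.61 and 2.66. Nearest to Slc39a4 were Ppp1r10 (0.235), Serpinf1 (0.259) and Gm2a (0.265), with log2 fold changes of -1.28, -1.52 and -1.46. The distance includes the difference between the groups, so genes near the metallothionein pair or Slc39a4 tend to have fold changes like theirs. The fold changes of these neighbours are therefore largely set by the measure, and nothing is read from them. Nearest to Slc39a14 were Hint3 (0.097), Pkp2 (0.130) and 2310009A05Rik (0.155). For Slc30a10 the nearest was Mlxipl (0.146), for Slc30a1 Tmem109 (0.259), for Mtf1 Kmt5b (0.090), for Slc39a8 Pdpr (0.224) and for Slc39a5 Trim32 (0.238). Without library 35, 2 of the 5 nearest genes of the metallothionein pair and 0 of the 3 of Slc39a4, Slc39a5, Slc39a8 and Slc30a1 were shared with these lists, as were 1 of the 3 of Slc30a10 and 2 of the 3 of Slc39a14 and Mtf1. With a prior count of 0.25 in place of 2, 3 of 5 were shared for the pair, 0 of 3 for Slc39a5, 2 of 3 for Slc30a10 and all 3 for the other genes. Nearness says nothing of shared function or control.

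**Figure D5:**
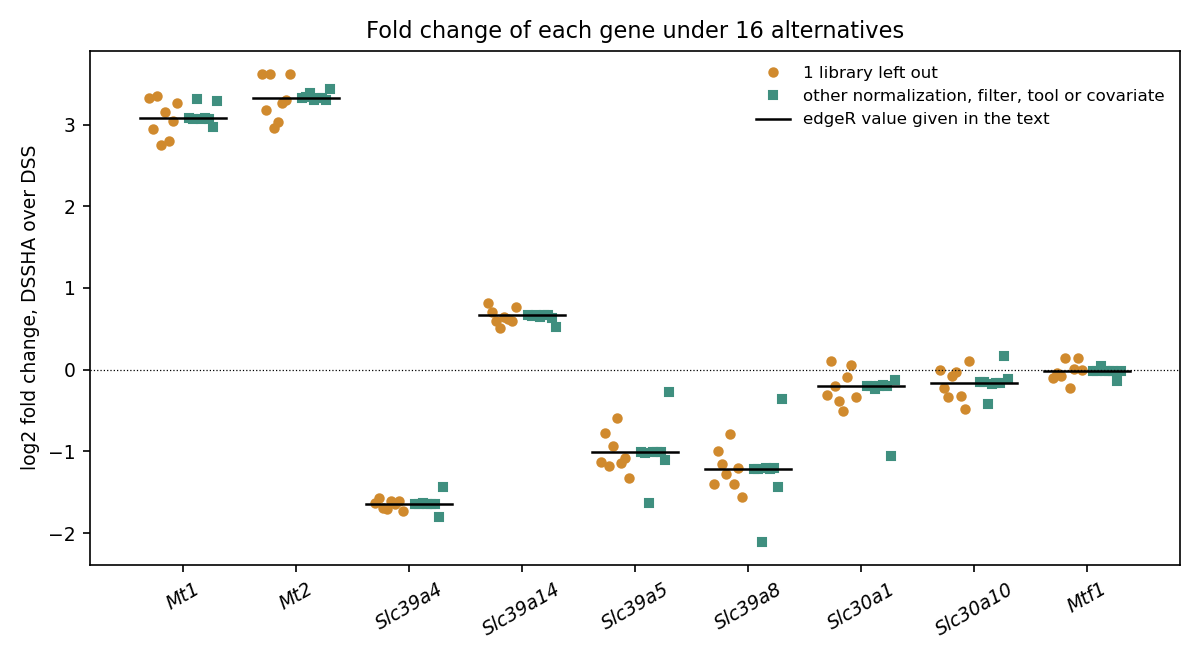
Log2 fold change of each of the 9 genes, DSSHA over DSS, in the edgeR fit given here (line), in the 8 fits that leave out 1 library (circles) and in 8 other alternatives (squares). Mt1, Mt2 and Slc39a14 stay above 0 and Slc39a4, Slc39a5 and Slc39a8 below 0 in all 16, whereas Slc30a1, Slc30a10 and Mtf1 lie on both sides.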

How the data were processed

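The deposited table holds the authors' raw counts per gene and library, with Ensembl gene names and coordinates; the submitters' processing notes name GRCm38 and mm10. Which aligner, counter and strand setting were used is not given in the sources at hand. The deposited FPKM values, by the authors, were checked to be counts per gene length, scaled by an effective library size that follows DESeq2's size factors.

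Genes were filtered with filterByExpr, scaled by TMM and tested by the robust quasi-likelihood test of edgeR 4.0.16 in R 4.3.3, with p-values adjusted over 11729 genes by Benjamini-Hochberg with a threshold of 0.05. Log2 CPM used a prior count of 2. Each SE is the log2 fold change over the square root of its F. Single measures had an exact two-sided permutation test over 70 assignments. Alternatives were RLE, DESeq2 1.42.0, limma-voom (limma 3.58.1), no filter, 1 CPM in 4 libraries, nuclear genes only, the mitochondrial share as a covariate, limma on log2(FPKM + 1), and leaving out each library.

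The 9 genes and the gene and marker lists were chosen with earlier results of these data known. The text names the 9 genes, list members past the threshold, the tested zinc transporters and the nearest profiles. Other list members, and the acute-phase genes outside the lists, were named after their values were seen. Promoter and protein sequences were not analysed here.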

Additional observations from a re-analysis of the deposited data

Results flagged for a closer look

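The Mt2 share of summed Mt1 and Mt2 counts in DSS library 50, 0.806%, lay below the other 3 DSS libraries (2.54 to 2.69%), with a gap that took up 0.920 of the group's range, above the 95% critical value of Dixon's test for 4 values. It rests on 3 Mt2 counts, and its 95% Wilson interval (0.275 to 2.34%) overlapped those of the other 3. Dixon's test leaves out this counting error, so nothing further is read from it. Of 20 groups of 4 values looked at, 1 met this criterion, and chance gives about 1 in 20.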

How the results depend on the processing

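No paired analysis was possible because DSSHA and DSS libraries carry different numbers. The count of genes past the threshold, 148 of 11729, was 431 of 14517 with DESeq2 and 320 of 22152 without a filter. It was 121 of 11729 with limma-voom, 55 of 11729 with the mitochondrial share as a covariate, and 58 to 308 when 1 library was left out. The list counts given below are to be read beside these counts over all genes. The count among the 9 genes, 3, was 1 with that covariate and 1 to 3 with 1 library left out. Of 144 fold changes of the 9 genes under alternatives, 142 moved by less than the SD between libraries, and no called gene changed sign. With 1 library left out, counts were 0 to 2 of the interleukin-6 genes (1 with the covariate, 2 without a filter, 3 with DESeq2), 0 to 2 of the glucocorticoid-induced genes (0 with the covariate, 2 without a filter, 2 with limma-voom, 3 with DESeq2, of which 1 rose and 2 fell), 0 to 1 of the zinc-binding list (0 with the covariate, 2 with DESeq2), 0 to 1 of the copper and manganese list (1 with DESeq2) and 0 to 1 of the Mtf1 targets. The fold changes that moved more were Slc30a1 with the covariate (-1.06) and Slc39a4 with limma on log2(FPKM + 1) (-1.44). With 1 library left out, Mt1 ranged from 2.75 to 3.35, Mt2 from 2.95 to 3.62 and Slc39a4 from -1.73 to -1.57.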
